A study of Mus musculus with 4 samples.

Results

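The replication-dependent histone genes were examined in open-chromatin peak lists of mouse pachytene spermatocytes, meiotic cells in the long middle stage of the first prophase. Members were the protein-coding genes of a GRCm38.p6 annotation whose symbol belongs to the clustered series H1f1 to H1f6, H2ac, H2bc, H3c and H4c, or to the testis series H2al and H2bl. The rule found 82 of 21887 protein-coding genes on chromosomes 1 to 19, X and Y. Of these, 54 lie on chromosome 13, 15 on chromosome X, 10 on chromosome 3, 2 on chromosome Y and 1 on chromosome 2. No member lies on chromosome 11 or 6 under the current symbols of the annotation. A set of 22 members counts as testis variants (H1f6, H2ac1, H2bc1 and all H2al and H2bl genes) and is described apart from the other 60, which are called core members.

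The study treated spermatocytes isolated from mouse testes at 2.5 µM for 12 h with BMH-21, which blocks RNA polymerase I, or with its solvent DMSO (mock). Accessible DNA was then mapped by ATAC-seq (transposase insertion into open chromatin) in 2 mock and 2 BMH-21 libraries. The labels give the tissue as testis and name no strain, age or genotype. They call the libraries of a group biological replicates without saying whether these came from separate animals, so p-values measure only the spread between these libraries.

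Replication-dependent histone genes supply the bulk of the linker histone H1 and of the core histones H2A, H2B, H3 and H4 during S phase. They sit in clusters, are short and intronless, and in dividing cells are transcribed in a nuclear body organised by NPAT; their messages end in a stem loop bound by SLBP in place of a poly(A) tail. Many H2A and H2B genes lie head to head and share 1 promoter region. Spermatocytes add testis variants: H1t (gene H1f6), TH2A (H2ac1) and TH2B (H2bc1), which are made in meiosis, and H2A.L proteins of the H2al genes, known from later sperm formation.

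The sequences upstream of 7 members are shown because the results turn on these genes. They are from RefSeq on GRCm38.p6, run 5′ to 3′ on the strand of the gene and end at the base before its start. Capitals mark motifs on either strand. The first is CCAAT, the box bound by NF-Y. The others are the TATA box in the form TATAAA, the octamer ATTTGCAT bound by POU factors, and the core of the MYB motif, written AACNGT. H2ac7 (chr13:23574208-23574380, plus strand) is the whole interval between the start sites of the H2bc7 and H2ac7 pair, and H2ac1 (chr13:23934187-23934436, plus strand) reaches from TH2A towards TH2B. H1f6 (chr13:23695561-23695810, plus strand) is the H1t promoter, and H1f4 (chr13:23622559-23622808, minus strand) is that of a somatic H1. H4c6 (chr13:23551669-23551918, minus strand), H4c4 (chr13:23581318-23581567, plus strand) and H4c3 (chr13:23698459-23698708, minus strand) belong to 3 genes of the same protein. The peaks of H2ac7, H2ac1, H1f6 and H4c3 were called in all 4 libraries, and those of H1f4, H4c6 and H4c4 in the mock libraries alone.
H2ac7: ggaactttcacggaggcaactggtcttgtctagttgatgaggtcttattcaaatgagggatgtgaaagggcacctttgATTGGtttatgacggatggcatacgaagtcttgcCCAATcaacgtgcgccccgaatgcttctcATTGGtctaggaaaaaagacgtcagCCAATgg
H2ac1: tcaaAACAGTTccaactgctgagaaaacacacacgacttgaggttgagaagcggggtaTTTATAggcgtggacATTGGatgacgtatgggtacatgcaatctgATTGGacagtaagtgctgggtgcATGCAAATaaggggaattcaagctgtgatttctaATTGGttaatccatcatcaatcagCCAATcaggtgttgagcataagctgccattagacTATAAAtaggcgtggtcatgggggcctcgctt
H1f6: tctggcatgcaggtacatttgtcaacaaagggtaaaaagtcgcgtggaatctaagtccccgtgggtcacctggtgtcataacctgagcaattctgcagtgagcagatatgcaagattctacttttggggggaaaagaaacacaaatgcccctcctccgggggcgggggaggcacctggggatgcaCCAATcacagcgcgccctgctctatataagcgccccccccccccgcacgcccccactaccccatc
H1f4: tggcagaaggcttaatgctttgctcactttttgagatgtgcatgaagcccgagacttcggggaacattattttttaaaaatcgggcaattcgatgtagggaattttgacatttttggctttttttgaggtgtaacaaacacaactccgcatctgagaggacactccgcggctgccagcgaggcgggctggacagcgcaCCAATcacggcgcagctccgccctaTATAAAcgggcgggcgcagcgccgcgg
H4c6: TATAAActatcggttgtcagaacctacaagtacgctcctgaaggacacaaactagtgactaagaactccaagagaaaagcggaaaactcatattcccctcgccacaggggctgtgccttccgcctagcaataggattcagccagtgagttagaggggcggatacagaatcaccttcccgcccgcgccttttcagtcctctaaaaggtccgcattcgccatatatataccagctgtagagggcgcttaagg
H4c4: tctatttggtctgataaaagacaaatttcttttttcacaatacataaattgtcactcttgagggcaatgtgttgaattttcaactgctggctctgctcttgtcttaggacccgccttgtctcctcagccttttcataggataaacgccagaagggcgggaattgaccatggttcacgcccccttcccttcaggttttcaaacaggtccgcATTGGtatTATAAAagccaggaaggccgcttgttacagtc
H4c3: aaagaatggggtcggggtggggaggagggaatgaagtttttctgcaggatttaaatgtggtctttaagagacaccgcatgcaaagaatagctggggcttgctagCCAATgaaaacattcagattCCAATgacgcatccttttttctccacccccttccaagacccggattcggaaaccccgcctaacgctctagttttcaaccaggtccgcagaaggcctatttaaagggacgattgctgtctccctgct

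The interval between H2bc7 and H2ac7 holds 4 CCAAT boxes in 173 bases, and none of the other letters searched. In the H2ac1 sequence there are 4 CCAAT boxes, 2 TATAAA matches and 1 octamer. H1f4 has a CCAAT box at −52 and TATAAA at −27, counted back from the gene's first base. H1f6 has its only match, a CCAAT box, at −65. Of the H4 sequences, H4c4 has TATAAA at −32, whereas H4c6 has it only at −250 and H4c3 lacks it.

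Over the whole genome, 109230 and 117905 peaks were called in mock cells and 51234 and 55459 in treated cells. The caller's genome-wide background, a measure of depth per position, was similar (4.54 and 4.31 reads in mock, 4.46 and 4.11 in BMH-21). A gene was given a gene-end peak where a peak lay within 1 kb of either gene end. Mock-only genes had such a peak with each DMSO library and with no BMH-21 library, and BMH-21-only genes the reverse. A missing peak means that the signal did not pass the caller's threshold, not that the DNA was closed. The fold of a peak is the authors' value (summit pileup over local background), and it was not normalised between libraries. In such bulk libraries, fewer cells with an open site and less signal per cell cannot be told apart.

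Fewer histone genes had a gene-end peak after BMH-21. The count was 60 and 61 members in mock, against 42 and 46 after treatment (60.5 ± 0.707 against 44.0 ± 2.83, SD, n = 2 each). These ranges are apart, and p was 0.333 by a two-sided exact permutation test, the smallest value that 2 libraries against 2 can give. The ratio of the means was 0.727, beside 0.87 for all protein-coding genes (15335 and 15479 against 13349 and 13450). Among other protein-coding genes of at most 1 kb the fall was larger in proportion, from 130 and 140 in mock to 83 and 85 after BMH-21. Among the 60 core members, 51 and 53 had a peak in the mock libraries and 36 and 38 after BMH-21.

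Gene by gene, 39 of the 82 members had a peak in all 4 libraries, 10 were mock-only, none was BMH-21-only, 19 had no peak in any library and 14 were mixed. Of the 58 members that had a peak in each mock library, 17.2% were mock-only and 67.2% had a peak in all 4 libraries, against 11.5% and 84.3% of all protein-coding genes with such peaks. Protein-coding genes in the same classes of mock peak strength as these members were mock-only in 14.8%. Among other protein-coding genes of at most 1 kb, which like histone genes have both ends in 1 window, the share was 34.7% (41 of 118). The share of the members lay between these backgrounds. In those short genes 55.9% had a peak in all 4 libraries. Members without any peak made up 23.2%, beside 26.5% of all protein-coding genes and 89.1% of the other short genes. None of the 19 members without a mock peak gained peaks in both BMH-21 libraries, where 2.86% of all such genes and 0.371% of the short ones did.

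**Figure D1:**
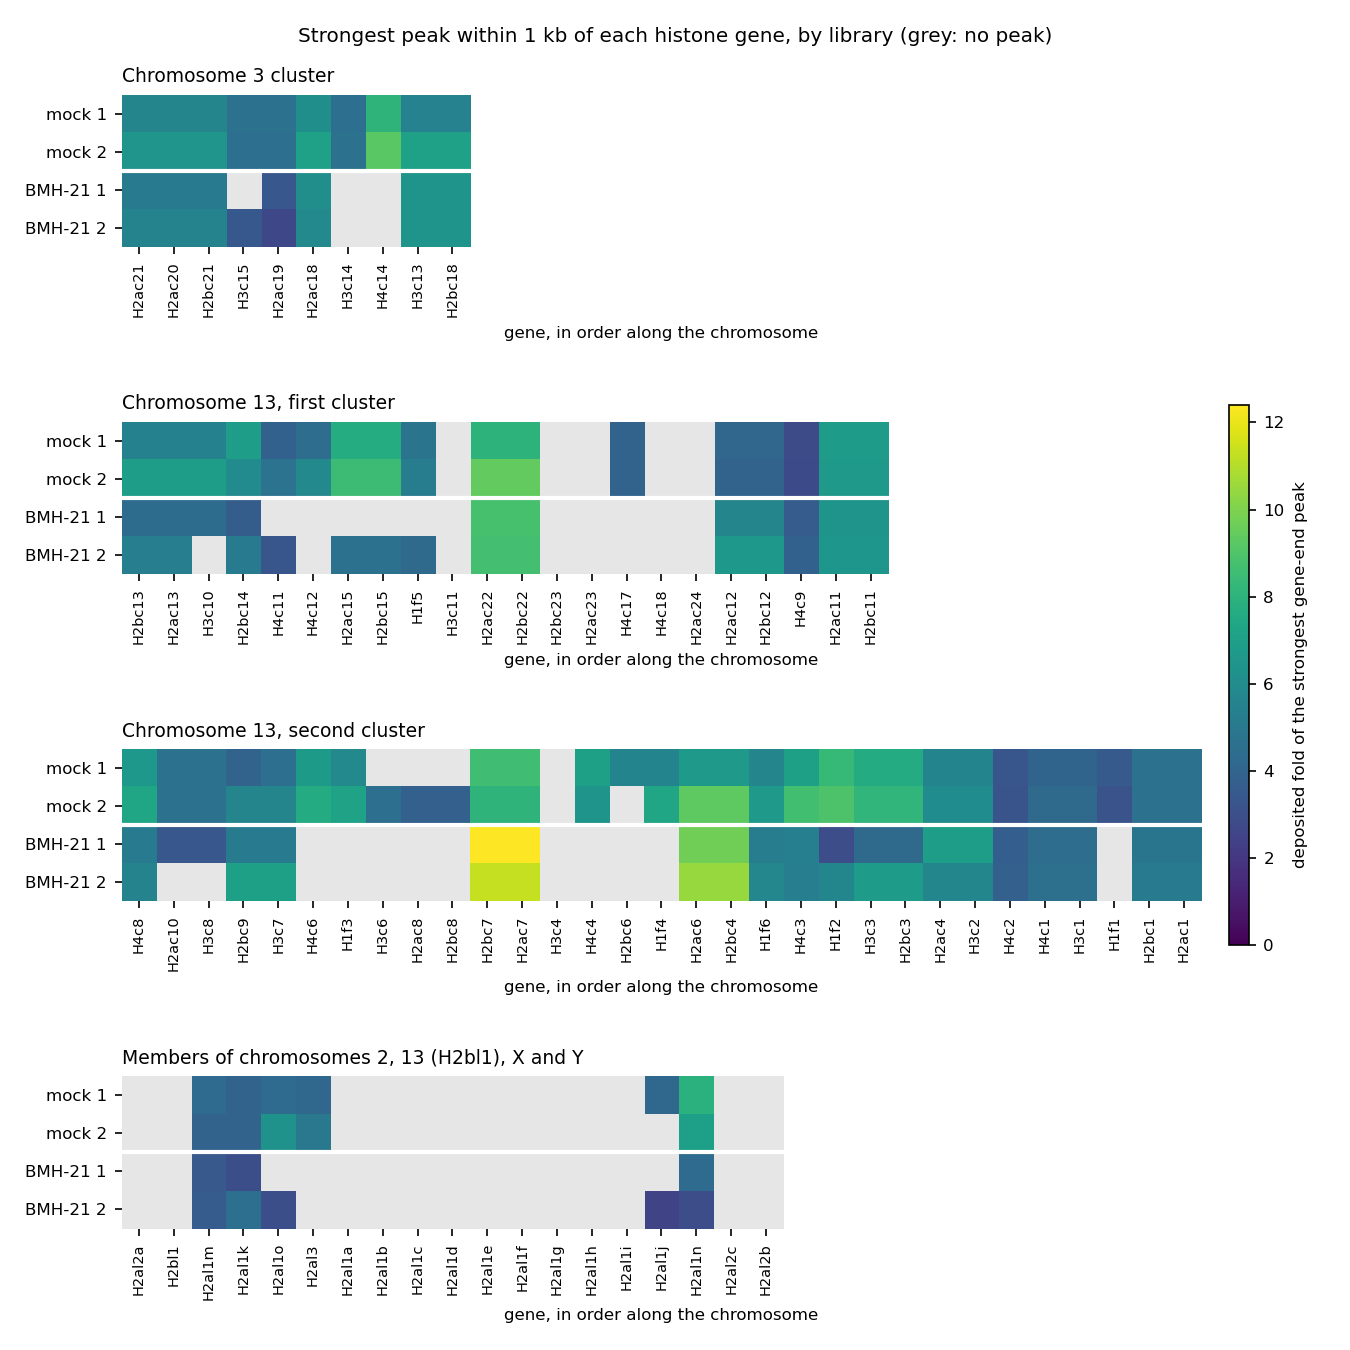
Each square is the deposited fold of the strongest peak within 1 kb of a histone gene (columns, in chromosome order) in a library (rows), with grey for no peak. Grey squares in both BMH-21 rows under filled mock squares mark the mock-only genes, such as H4c14, H4c6 and H1f4.

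The core histone types differed in how many of their genes kept a peak. Of the 16 H1 and H4 genes that had a peak in each mock library, 8 were mock-only (50.0%) and 6 had a peak in all 4 libraries. Of the 25 H2A and H2B genes with such peaks, none was mock-only and 22 had a peak in all 4 libraries (88.0%). The shares over genes of the same mock strength classes were 17.4% mock-only for H1 and H4 and 10.7% for H2A and H2B. H3 genes lay between, with 1 of 9 mock-only. Because neighbouring genes share peaks, these genes are not independent, and the difference between types was not tested. When each peak was given only to its nearest member, 3 H2A and H2B genes became mock-only and the H1 and H4 count stayed at 8. The 3 were H2bc21, H2bc9 and H2bc11, but the BMH-21 peaks of the H2bc11 region then went to H2ac11. Members of any type with a peak in all 4 libraries fell from 39 to 21 under that rule. The 6 H1 and H4 genes in all 4 libraries stayed so. The kept share of H2A and H2B genes thus rests partly on shared peaks. A gene with several peaks is mock-only only if all of them are, and by merged region 6 of 23 at a core H2A or H2B gene were mock-only. These 6 include regions shared with other types, such as the region over H1f4, which lies within 1 kb of an end of H2bc6.

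**Figure D2:**
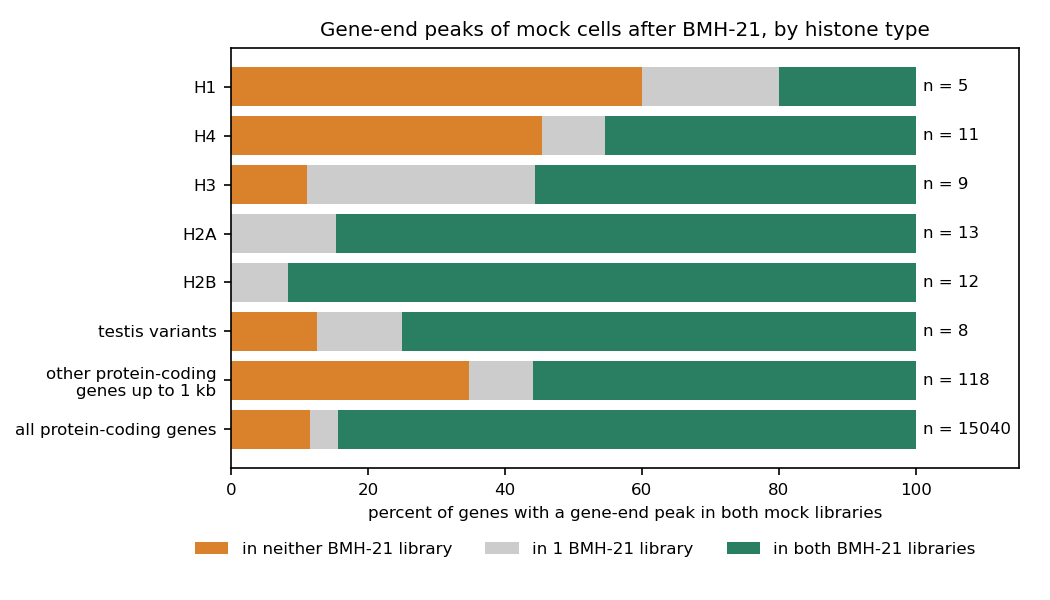
Bars give the percent, among genes marked by a gene-end peak in each mock library, that had a peak in all 4 libraries, were mock-only or were mixed, by histone type. The mock-only share reads 60.0% in H1, 45.5% in H4, 11.1% in H3 and 0.0% in H2A and in H2B.

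The linker histone genes had the lowest ratio of BMH-21 to mock counts among the core types, 0.3. All 5 core H1 genes had a peak in each mock library, against 1 and 2 in the BMH-21 libraries. H1f3 had a fold of 5.84 and 7.14 in mock 1 and mock 2, and H1f4 had 5.6 and 7.34. Neither had a peak after BMH-21. H1f1 was the third mock-only gene, with 3.51 and 3.19, and its summits rose from a high local background (16.1 and 16.6 reads). In its class of mock strength 33.4% of protein-coding genes were mock-only, beside 6.92% in the class of H1f3 and H1f4. H1f5 had 4.78 and 5.23 in the mock libraries, none in BMH-21 1 and 4.3 in BMH-21 2.

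H1f2 was the only core H1 gene with a peak in all 4 libraries, but that peak was smaller after treatment. Its fold was 8.32 and 8.94 in the mock libraries and 2.93 and 5.67 after BMH-21. The summit held 81 and 78 reads in mock and 15 and 28 after BMH-21. Divided by each library's genome-wide background, these pileups came to 17.8 and 18.1 against 3.37 and 6.8, without overlap, a difference of −1.82 on the log2 scale. That places H1f2 at percentile 2.8 of 11283 autosomal protein-coding gene-end regions kept in all 4 libraries.

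The testis H1 gene, H1f6, did not follow the core H1 genes. Its peak had a fold of 5.63 and 6.7 in the mock libraries and 5.21 and 5.74 after BMH-21, so the groups overlapped. The pileups were 55, 62, 60 and 59 reads in the order mock 1, mock 2, BMH-21 1 and BMH-21 2. The scaled difference was 0.07 on the log2 scale.

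Peaks also covered less of the H1 genes. In the mock libraries a mean of 83.4% and 80.5% of the gene body of the 5 core H1 genes lay under a peak, and 13.7% and 7.72% in the BMH-21 libraries. At 100 bp into the gene, 4 of the 5 lay under a peak in each mock library and 1 in each BMH-21 library. The stretch before the start was under a peak in 27.1% and 22.5% of its bases in mock. H1 peaks thus lay mainly over the gene body. At 80 bp before the start, 3 of the 5 genes were still under a peak in each mock library.

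Histone H4 is encoded by many genes. Of the 12 core copies, 11 had a peak in each mock library and 5 and 6 had one after BMH-21. The 5 mock-only copies were H4c14, H4c6, H4c4, H4c12 and H4c17. H4c14 of chromosome 3 had the highest fold among them, 8.07 and 9.21, with summits of 51 and 60 reads. Only 3.7% of protein-coding genes in its class of mock strength were mock-only. H4c6 had 6.78 and 7.61 and H4c4 7.04 and 6.4, both in a class where 6.92% were mock-only. H4c12 was lower, at 4.42 and 5.84, in a class where 18.6% were mock-only. The H4c17 peak (3.97 and 3.95, in a class where 28.2% were mock-only) lay wholly outside the gene. The H4c17 promoter is 99.7% identical to that of H4c18, which had no peak, so reads of the pair may be assigned to either copy.

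Another 5 H4 genes had a peak in all 4 libraries: H4c1, H4c2, H4c3, H4c8 and H4c9. H4c8 held 122 and 123 reads at its summit in mock and 122 and 125 after BMH-21. H4c3 held 65 and 77 in mock and 62 and 56 after BMH-21, and its scaled values were lower after BMH-21 without overlap (−0.23 on the log2 scale). At H4c9 the pileup was higher after BMH-21, at 61 and 64 reads against 43 and 44, and the region reaches the end of its neighbour H2ac11. H4c11 had a peak in both mock libraries and in BMH-21 2. Mean cover of the H4 gene bodies was 75.0% and 77.0% in mock against 38.8% and 47.4% after BMH-21.

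H3 genes had a peak in 9 and 10 of 12 cases in the mock libraries, and in 7 and 6 after BMH-21. H3c14 was the only mock-only H3 gene, with folds of 4.55 and 4.63, in a strength class where 21.9% were mock-only. Its peak is shared with the end of H2ac18 and covers none of the H3c14 gene body. H3c3 had a peak over its own gene in the mock libraries alone (3.5 and 3.23) and counts as kept through a region shared with H2bc3. When each peak was given only to its nearest member, H3c3 was mock-only and H3c14 had no peak. Many other H3 genes also shared a region with a neighbour. H3c13 shared a region with H2bc18, H3c2 with H2ac4, H3c3 with H2bc3, H3c1 with H4c1 and H3c7 with H2bc9. The H3c2 gene body was under no peak, whereas peaks lay on those of H3c13, H3c1 and H3c7 in every library. By nearest member, H3c7 had a peak in every library and H2bc9 was mock-only. H3c11 and H3c4 had no peak in any library. Mean cover of the H3 gene bodies was the lowest of the core types in the mock libraries, at 27.1% and 34.9%, and 23.3% and 20.7% after BMH-21.

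**Figure D3:**
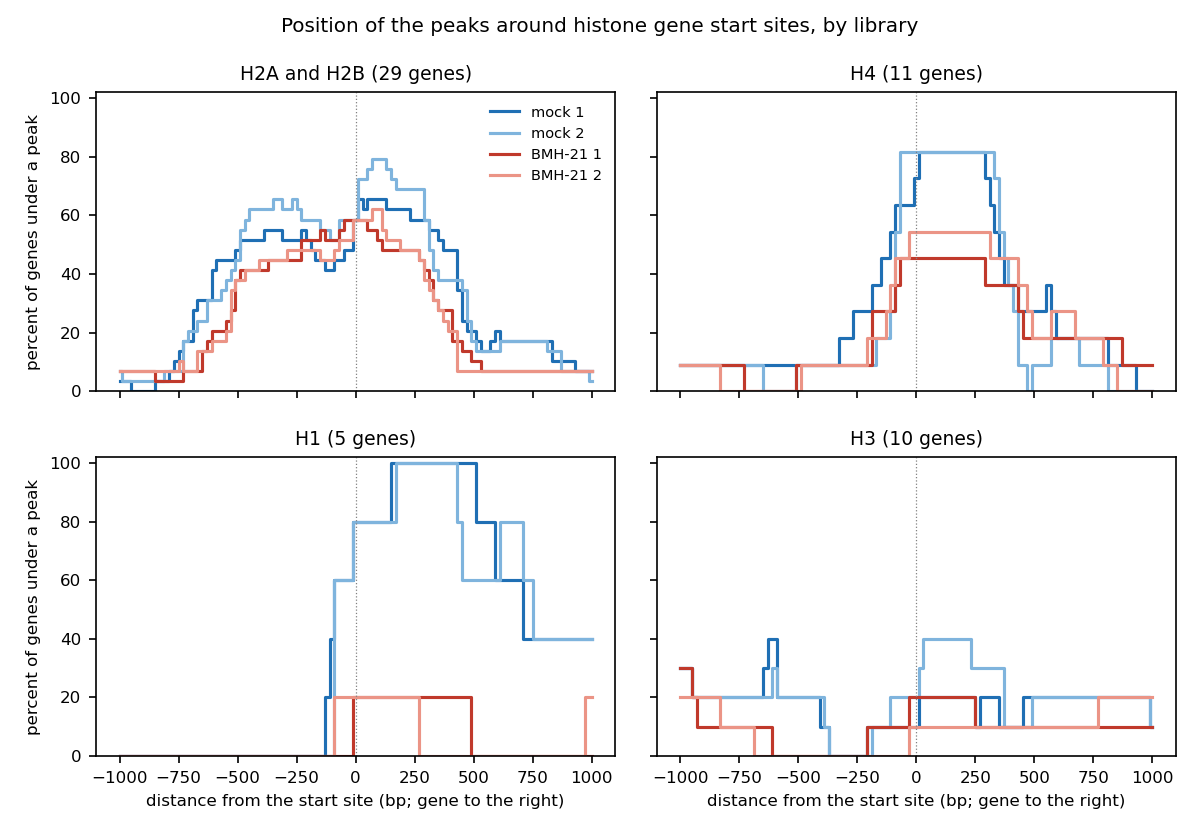
Lines give the percent of genes under a peak at each distance from the start site (bp, gene to the right), for core genes of each type and library. At 200 bp into the gene, 5 of 5 H1 genes were covered in each mock library and 1 after BMH-21, while H2A and H2B genes read 62.1% and 69.0% in mock and 48.3% in both BMH-21 libraries.

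Most H2A and H2B genes had at least 1 peak in every library, though some lost a peak at one of their ends. Of 16 H2A genes, 13 and 14 had a peak in mock 1 and mock 2, and 12 and 12 in BMH-21 1 and BMH-21 2. Of 15 H2B genes the counts were 13 and 13 in mock and 11 and 12 after BMH-21. Gene-body cover of H2A was 53.2% and 55.0% in mock against 44.5% and 46.0%. For the 10 H2B genes of at most 1 kb it was 65.2% and 74.3% against 38.1% and 35.0%, so peaks covered less of these genes after treatment. Longer H2B genes, H2bc22 among them, were left out of this cover. The H2bc7 and H2ac7 pair, whose shared promoter is shown above, had a fold of 8.58 and 8.08 in mock and of 12.4 and 11.3 after BMH-21. Its summit held 93 and 95 reads in mock and 126 and 114 after BMH-21, with no overlap on the scaled values (0.4 on the log2 scale). H2ac6 and H2bc4 shared a peak with folds of 6.7 and 9.33 in mock and 9.71 and 10.5 after BMH-21. Here the pileups overlapped, at 74 and 93 against 79 and 85 reads.

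Other H2A and H2B regions were higher after BMH-21 in both libraries than in both mock libraries. The H2ac12 and H2bc12 pair had pileups of 32 and 29 reads in mock and 48 and 53 after BMH-21 (0.78 on the log2 scale after scaling, percentile 96.3). For the H2ac22 and H2bc22 pair the values were 85 and 89 against 122 and 111 (0.47). H2ac18 of chromosome 3 held 52 and 60 against 78 and 76 (0.5). Other regions went the opposite way. H2bc14 held 51 and 43 reads in mock and 19 and 25 after BMH-21 (−1.04). The region shared by H2bc13, H2ac13 and H3c10 held 41 and 54 against 23 and 26 (−0.91).

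Head-to-head pairs are frequent among these genes. Genome-wide, 1.39% of protein-coding genes with a head-to-head partner within 1 kb were mock-only, against 12.4% of those without. Of the 12 core members with such a partner and a peak in each mock library, all of them H2A or H2B, none was mock-only. Among the 33 core members without a listed partner, 8 were (24.2%). The 11 H2A and H2B genes without a listed partner also included no mock-only gene. Another 5 core members, of which 1 was mock-only (H4c14), had no listed start site. They could be neither scored nor found as a partner. H2ac6 beside H2bc4 and H2ac20 beside H2bc21 thus count as without a partner, although this could not be checked.

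Across the 25 regions with a peak in all 4 libraries, the scaled pileup after BMH-21 differed from mock by a median of 0.12 on the log2 scale, where the 11283 autosomal gene-end regions had −0.1. It was higher without overlap in 10 (40.0%, background 30.4%) and lower in 7 (28.0%, background 46.4%). At core H2A and H2B genes the median was 0.28 over 15 regions, with 8 higher and 4 lower. Regions at core H1, H3 or H4 genes alone were 5, with a median of −0.23, none higher and 3 lower. Regions that reach an H2A or H2B gene and another type were counted with H2A and H2B. Among these, the region of H4c9 and H2ac11 was higher (0.57) and that of H3c3 and H2bc3 lower (−0.93). These regions are those that passed the threshold everywhere, so the lost peaks do not enter the medians.

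**Figure D4:**
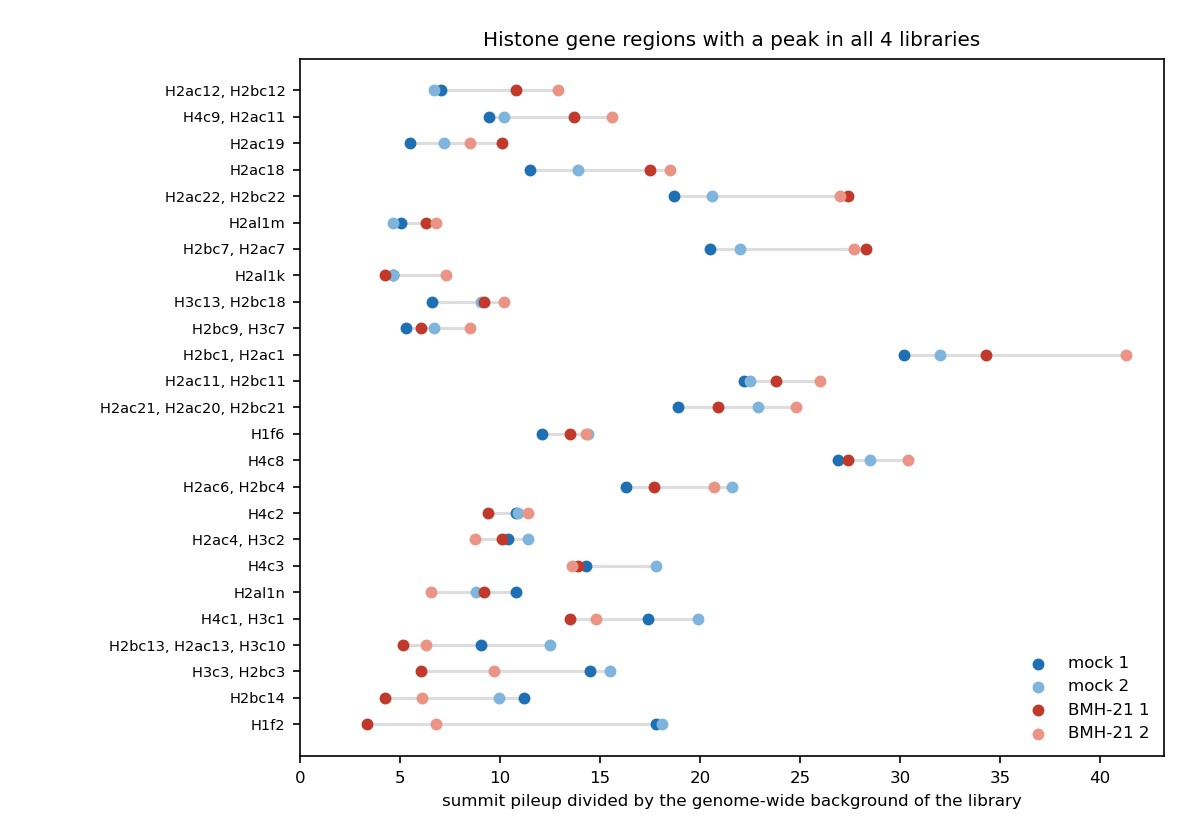
Points give the summit pileup divided by the genome-wide background of its library, for the 25 histone gene regions with a peak in all 4 libraries, labelled by the genes they reach. H1f2 and H2bc14 lie lower in both BMH-21 libraries, and H2ac12 with H2bc12 and H2bc7 with H2ac7 lie higher.

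Counted once per merged region, 53 regions of 155908 lay at member ends, and the number with a peak was 49 in mock 1, 49 in mock 2, 26 in BMH-21 1 and 31 in BMH-21 2. Of the 46 present in both mock libraries, 16 were mock-only (34.8%, background 26.5% of 16545 autosomal protein-coding gene-end regions). Peaks shared by neighbours were common: 23 regions reached at least 2 members and 3 reached at least 3. Regions at a core H2A or H2B gene were mock-only in 26.1%, close to the background, and those at core H1, H3 or H4 genes alone in 50.0% (8 of 16). The mock-only region over H1f4 also reaches H2bc6 and is counted with the H2A and H2B regions. The mock-only share was 23.8% (5 of 21) for shared regions and 44.0% (11 of 25) for regions at 1 member. The 16 mock-only regions had a median summit of 35.5 and 34.5 reads in the mock libraries, and the 25 regions in all 4 libraries 52.0 and 60.0. Local background was also lower at the mock-only regions, with medians of 5.61 and 5.14 reads against 8.86 and 8.02. Peaks in regions at member ends spanned 30499 and 31495 bases in mock and 20119 and 20818 after BMH-21.

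Core members and the testis trio lie in 3 blocks. The block on chromosome 3 (chr3:96219885-96270192) holds 10 members, each called in the mock pair; 7 had a peak in all 4 libraries and H3c14 and H4c14 were mock-only. H2ac21, H2ac20 and H2bc21 share 2 regions there. One was in all 4 libraries, with folds of 5.65 and 6.47 in mock and 5.05 and 5.57 after BMH-21, and the other was mock-only, with 3.87 and 4.07. The highest mean mock folds of that block were those of H4c14 and H2ac18 (6.19 and 7.09 for the latter), then of the peak shared by H3c13 and H2bc18 (5.5 and 7.09).

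On chromosome 13 the first block (chr13:21715711-22043658) holds 22 members, of which 10 had a peak in all 4 libraries, 2 were mock-only (H4c12 and H4c17), 5 had none and 5 were mixed. The 5 without a peak were H3c11, H2bc23, H2ac23, H4c18 and H2ac24. H2ac22 with H2bc22 had the strongest mock peak of the block (fold 8.02 and 9.43), followed by H2ac15 with H2bc15 (7.67 and 8.51). The latter pair had no peak in BMH-21 1 and a fold of 4.69 in BMH-21 2.

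The second block (chr13:23531044-23934913) holds 31 members: 19 with a peak in all 4 libraries, 5 mock-only (H4c6, H1f3, H4c4, H1f4 and H1f1), 6 mixed and 1 without a peak (H3c4). H1f2, H2bc7 with H2ac7 and H2ac6 with H2bc4 had the highest mock folds. From H4c6 to H1f4, H2bc7 and H2ac7 were the only members with a peak in all 4 libraries. From H2ac6 to H3c1 every member had one. H4c4, mock-only, lies between the H2bc7 and H2ac7 pair, whose peak was higher after BMH-21, and H1f4, also mock-only. Position in the block and histone type were not separated. Away from member ends the block held 17 further regions, 8 of them in both mock libraries, of which 6 were mock-only and 2 were in all 4 libraries. The first block had 14 such regions, with 4 mock-only and 3 kept among the 8 in both mock libraries, and 2 further regions BMH-21-only.

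**Figure D5:**
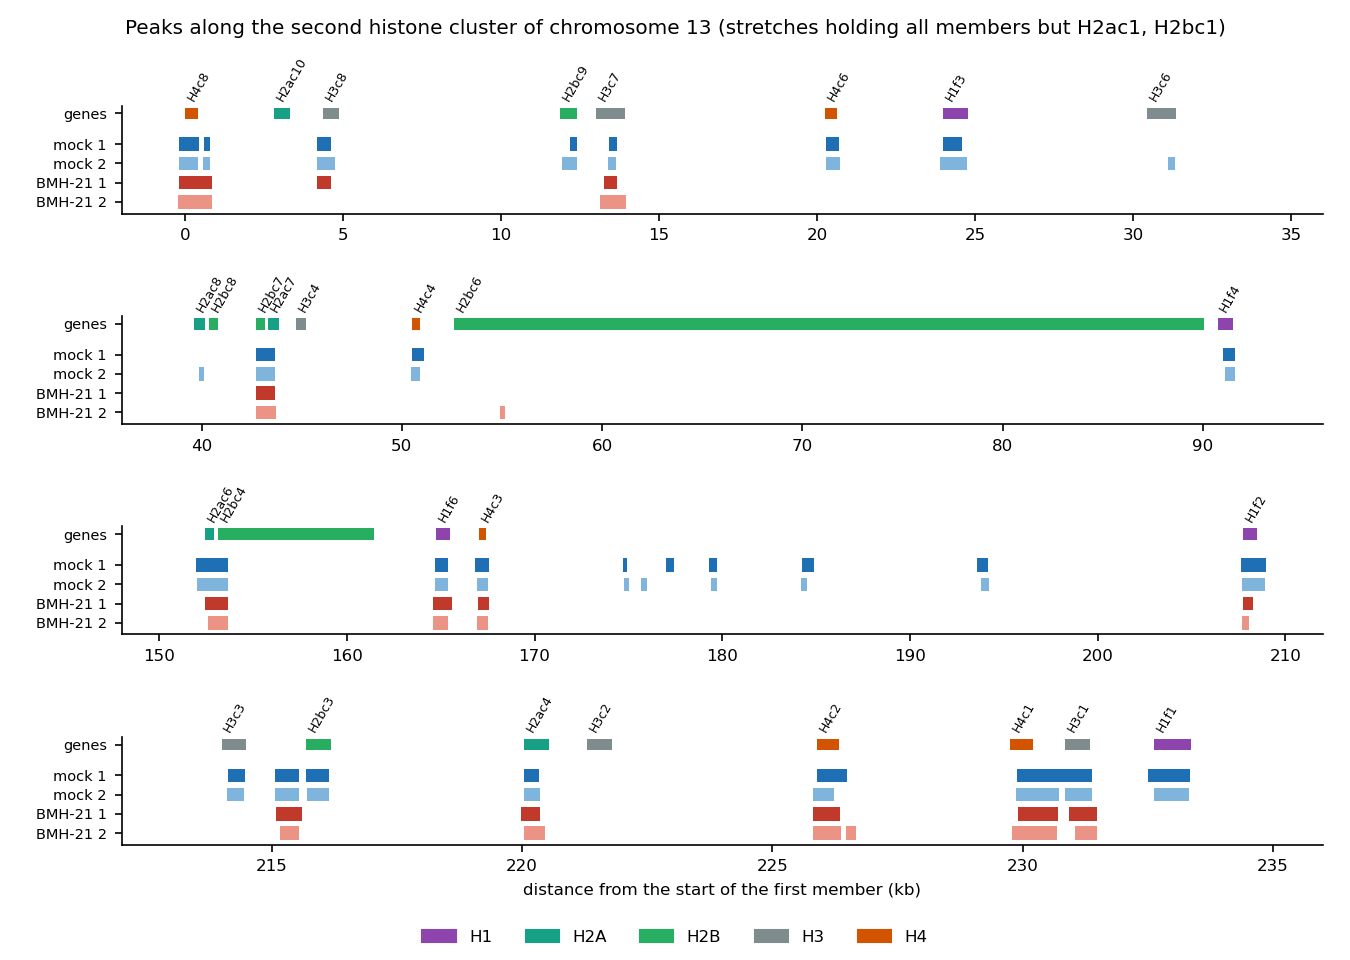
Bars mark the called peaks of each library along the second histone block of chromosome 13, under the genes coloured by type, with distance in kb from the first member and stretches of differing scale that leave out H2ac1 and H2bc1. Peaks at H4c6, H1f3, H4c4, H1f4 and H1f1 appear in the mock rows alone.

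TH2A and TH2B, which share 1 head-to-head promoter, had the deepest peak among the member regions. Its summit held 137 and 138 reads in mock and 153 and 170 after BMH-21, without overlap after scaling (0.28 on the log2 scale). The fold was moderate, at 4.62 and 4.67 against 4.82 and 5.13, and the local background was high as well (28.9 and 28.8 against 31 and 32.3 reads). Together with H1f6, the 3 testis genes of the cluster thus had a peak in every library.

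The H2al and H2bl genes were mostly without a peak. Over the 22 testis variants, 13 had none in any library, 6 had one in all 4, 1 was mock-only and 2 were mixed. Without any peak were thus 59.1%, beside 22.8% of protein-coding genes on chromosome X and 89.1% of other short genes. The 1 mock-only gene of 8 with a peak in both mock lists is 12.5%, beside 19.9% in the same strength classes. The mock-only gene was H2al3 on chromosome X (fold 4.15 and 4.95). H2al1n had 7.94 and 6.99 in mock and 4.33 and 2.94 after BMH-21, while its scaled pileups overlapped. H2al1m and H2al1k also had a peak in all 4 libraries, H2al1o and H2al1j were mixed, and H2al1a to H2al1i, H2al2a, H2al2b, H2al2c and H2bl1 had none. Promoters of several H2al1 copies are 94.0% to 99.7% identical, and those of H2al2b and H2al2c are the same throughout. How reads with several matches were treated is not given in the sources used here, so absent peaks in these copies are uncertain.

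CCAAT boxes were common in core histone promoters. The RefSeq table held 77 of the 82 members, with 300 bases each (250 before and 50 after the start). CCAAT on either strand was found in 85.5% of core members, against 38.2% of 21263 protein-coding promoters. It was present in all core H1, H2A, H2B and H3 genes listed but in 3 of 11 H4 genes. TATAAA was found in 58.2% of core members against 12.6%, and in 7 of the 8 mock-only core members with a sequence against 15 of the 29 with a peak in all 4 libraries. Among the 7 is H4c6, where it lies only at −250. By type it was found in 80.0% of core H1 and 72.7% of core H4 promoters. The shares were 62.5% in H2A, 46.2% in H2B and 40.0% in H3, so the contrast between mock-only and kept genes is not separate from type. The octamer ATTTGCAT was found in 10 core members (18.2% against 1.66%), 5 H2A and 5 H2B genes. CACGTG (the E-box) was found in no member and in 7.84% of promoters, TTTCCCGC (an E2F-type site) in 1 member and 1.41%, and AACNGT in 30.9% of core members and 23.3%. Core promoters had a median GC content of 45.3% against 56.3%. None of the 18 H2al promoters of chromosomes X and Y held CCAAT. These matches describe letters in a window, and their relation to the peaks was not tested.

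Genes for factors that act on histone transcription, messages and supply mostly had a peak throughout. Of 37 such genes, 36 had a peak in all 4 libraries, none was mock-only, and Nfyc had none. Over genes of the same strength classes 7.9% were mock-only, so a count of 0 is near the background. Npat had folds of 8.58 and 9.02 in mock and 7.02 and 7.19 after BMH-21. For Slbp they were 5.73 and 6.59 against 4.87 and 4.72. Of 14 replication-independent histone genes, 10 had a peak in all 4 libraries and H1f7, a linker histone of spermatids, was mock-only (6.77 and 7.72), or 9.09% of those with both mock peaks beside 10.7% in the same strength classes.

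Of 10 pachytene marker genes, 8 had a peak in all 4 libraries, and Spata22 and Ccna1 had none. Markers of other cells were uneven between the groups. Of 4 macrophage genes, 3 (C1qa, Tyrobp and Csf1r) were mock-only and C1qb had a peak in mock 2 alone. Of 5 round spermatid genes, Prm1 and Prm2 were mock-only, Tnp2 had a peak in mock 2 alone, and Tnp1 and Acrv1 had none. The mock-only share in the same strength classes was 26.7% for the macrophage list, 29.1% for the round spermatid list and 6.77% for the pachytene list. Of 6 spermatogonial genes, Kit, Zbtb16 and Uchl1 had a peak in all 4 libraries, Dmrt1 was mock-only, Sall4 was mixed and Stra8 had none. Of 4 Leydig genes, Star was mock-only, Cyp17a1 and Hsd3b1 had none, and Insl3 had a peak in all 4 libraries, with folds of 2.8 and 2.13 in mock and 4.09 and 5.51 after BMH-21. Of 6 Sertoli genes, Amh, Wt1 and Cldn11 had a peak in all 4 libraries, Rhox5 was BMH-21-only, Sox9 was mixed and Gata4 had none. All 4 genes of dividing cells (Mki67, Top2a, Ccnb1 and Pcna) had a peak in all 4 libraries. The part of other cell types in the histone gene results was not tested.

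Each list was also cut by p-value to the length of the shortest, that of BMH-21 1. Then 5 of the 10 mock-only members remained so (H4c14, H4c6, H4c4, H1f3 and H1f4), or 11.6% of 43, against 7.02% of all protein-coding genes. Under the same setting 6 members became BMH-21-only: H2ac12, H2bc12, H4c9, H4c2, H2al1m and H2al1k. They are 19.4% of the 31 members then without a mock peak, against 6.56% of all such protein-coding genes. No core H2A or H2B gene was mock-only there. The count of mock-only members without BMH-21 replicate 2 was 16. The added genes were H3c15, H4c11, H2ac15, H2bc15, H1f5 and H2al1o.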

How the data were processed

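Data were ATAC-seq peak lists, 1 per library and not pooled, from 2 mock and 2 BMH-21 libraries of pachytene spermatocytes. Tools listed without a role, per the submitters' processing notes, are MACS2 2.1.0, Bowtie2, deepTools, fastp and bedtools; the builds mm39 and mm10 are listed too. Coordinates were taken as mm10, because peaks reach base 195371813 of chromosome 1, which fits that build, and were read against RefSeq genes of GRCm38.p6. The deposited lists give the authors' score, the fold (a ratio of summit pileup to local background), −log10 p and −log10 q values, and the summit offset. Read totals and filters on multiply mapped reads are not given in the sources used here.

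From fold and p, the local background and the whole-number pileup at the summit were recovered (largest error 0.0008 in −log10 p). The smallest local background of a list served as its genome-wide background, by which pileups were divided. Peaks were merged into regions at an overlap of at least 1 bp. Mock strength is the mean percentile of a gene's strongest fold in the mock lists, in 10 classes. The counts of members with a peak were compared by exact permutation. Named genes were all mock-only and BMH-21-only members, all testis variants and H1 genes, the 3 strongest members of each block and those without a peak; other genes are given to describe shared or kept peaks and were chosen after their values were seen. Members and lists were chosen with earlier results of these data known. Start sites came from the RefSeq promoter table, which has 77 members, in place of annotation strand. Replicate numbers do not pair the libraries. The scripts were tested on simulated data and used Python 3.11.15, numpy 2.4.6, pandas 2.3.3, scipy 1.17.1 and matplotlib 3.10.9. Alternatives were other windows, a stricter q, summits, equal list lengths, nearest-member assignment and leaving out each library.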

Additional observations from a re-analysis of the deposited data

How the results depend on the processing

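With equal list lengths the counts were 5 members mock-only, 6 BMH-21-only, 5 core H1 and H4 genes and 8 member regions mock-only; the construction of this setting removes the weaker mock peaks. The 0 mock-only core H2A and H2B genes became 1 with a 500 bp window, 2 with 2.5 kb, 3 with nearest-member assignment and 3 when a peak in 1 mock library was enough. Nearest-member assignment also gave 1 BMH-21-only member and 21 members in all 4 libraries. Leaving out 1 library gave 11 to 16 mock-only members, 1 to 2 core H2A and H2B genes, 8 to 10 core H1 and H4 genes, 17 to 20 mock-only regions and a difference of 14.5 to 18.5 members with a peak. With the replicate block the difference was 16.5 (exact permutation p = 0.5, the smallest for 2 pairs). Same-numbered libraries did not deviate together (r = −0.00141 over 11283 regions). The counts for core H1 and H4 and for core H2A and H2B, and the inclusion of older gene names, were added after seeing the data. Peak lists without read totals limit every count to what passed the caller's threshold.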

Other observations

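Protein-coding genes that carry only an older name of the clustered histone series number 4 and lie outside the symbol rule: H4f16 on chromosome 6, H2bu2 and H2aw on chromosome 11 and H4bc24 on chromosome 13. H2bu2, an H2B gene, had a fold of 3.37 and 3.19 in the mock libraries and 7.92 and 7.58 after BMH-21. Its summit held 22 and 23 reads in mock and 57 and 64 after BMH-21, so the groups did not overlap. H2aw, an H2A gene of the same chromosome, had 5.96 and 5.81 in mock and 4.61 and 5.11 after BMH-21. H4f16 had 4.98 and 4.32 against 4.3 and 4.88, with overlap, and H4bc24 had no peak in any library. These genes were chosen after their values were seen.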
